A study of Drosophila melanogaster with 5 samples.

Results

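Nuclear genes for subunits of the oxidative phosphorylation (OXPHOS) complexes were followed in single nuclei of Drosophila Malpighian tubules (MTs), the fly kidney. The 84 genes were taken by symbol alone, as every gene of the deposited matrix whose symbol begins with ND-, UQCR-, ATPsyn or COX and a digit, together with SdhA, SdhB, SdhC and SdhD, from 16495 genes in all. Genes of mitochondrial DNA were not members. EGT > yki act flies carried UAS-yki3SA, an active form of the growth regulator Yki, and their controls were EGT > w1118 flies. Both carried esg-GAL4, tub-GAL80TS and UAS-GFP, so that the transgene was placed under a driver of gut stem cells that is also active in the stem cell zone of the MT. PCts > Pvr act flies carried UAS-Pvr act, an active form of the PDGF/VEGF receptor homolog Pvr, and flies labelled PCts > Pvr RNAi carried UAS-Pvr RNAi (the labelled Pvr RNAi library below). The control for both was PCts > w1118, and all PCts flies carried CG31272-GAL4, a driver of principal cells (PCs), with tub-GAL80TS. All flies were females raised at 18 °C and then held at 29 °C to induce the transgenes, for 8 days by the protocol and for 5 days by another field of the same labels. Each genotype was 1 library of sorted nuclei from 90 pairs of pooled MTs, so differences between genotypes have no replicate check, and no test between genotypes and no p-value is given.

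The OXPHOS system passes electrons from NADH and succinate through complexes I and II to complexes III and IV. Complexes I, III and IV pump protons out of the mitochondrial matrix, and complex V (ATP synthase) uses the proton gradient to make ATP. Most subunits are encoded in the nucleus, translated in the cytosol and imported, and a few core subunits are encoded in mitochondrial DNA. PCs of the MT are rich in mitochondria, and a proton pump on their luminal side drives fluid secretion and consumes much ATP.

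The deposited annotation placed 21371 nuclei in 17 cell types, with 1969 to 9367 nuclei and 10018765 to 39154127 unique molecular identifiers (UMIs) per library. Stellate cells carried the markers of their name, with 157 to 223 UMIs per 10,000 from 5 genes, and main segment PCs carried 86.2 to 104.3 UMIs per 10,000 of 5 PC markers. The nuclei annotated as renal stem cells were not set apart by N and Egfr, the 2 of 4 fixed stem cell markers that matched a gene. These summed to 1.24 to 8.53 UMIs per 10,000 there, against 15.5 to 22.1 in stellate cells, so the name is used below only as that of the annotation. Barcodes shared between libraries covered 0.496% of nuclei. Pvr itself was at 29.1 UMIs per 10,000 in PCts > Pvr act, 6.29 in the labelled Pvr RNAi library and 7.11 in PCts > w1118. In main segment PCs, Pvr was at 8.41 UMIs per 10,000 in the labelled Pvr RNAi library and 9.29 in PCts > w1118, so that its level was close to the control in nuclei of the targeted cells. How far Pvr RNA was lowered in whole cells was not measured. The gene yki was at 0.333 UMIs per 10,000 in EGT > yki act and 0.325 in EGT > w1118.

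Levels below are UMIs of a gene per 10,000 UMIs of all genes, summed over the nuclei of a library or cell type. A difference is the log2 ratio of such levels with a 95% interval from the UMI counts (exact conditional binomial), which covers counting error only and not differences between flies or preparations. A gene was counted as higher or lower if its ratio was past 1.5-fold, among genes with at least 100 UMIs over both libraries. Cell types were used in a library with at least 20 nuclei.

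Nearly all of the OXPHOS signal came from 61 genes with over 1000 UMIs each. The other members were 5 genes with 100 to 1000 UMIs over all libraries, 13 with 1 to 99 and 5 with none. Complex I had 40 members, complex II 4, complex III 9, complex IV 16 and complex V 15. Of the members, 21 carry an L in their symbol, which marks a paralog of a canonical subunit, and these 21 held 0.184% of the members' UMIs. Only 2 canonical genes stayed at or below 1000 UMIs, ND-MNLL with 314 and ND-B8 with 5, both accessory subunits of complex I. Member UMIs were found in 99.7% or more of nuclei in every library.

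ATPsynC, which encodes the subunit of the proton-driven rotor ring, had the most UMIs of the members. It lies on the reverse strand of chromosome 3R (BDGP6, 31216145 to 31219630), where its exons overlap those of other annotated genes on the same strand, among them a microRNA. ATPsynC was at 8.49 UMIs per 10,000 in EGT > yki act and 14.5 in EGT > w1118, and at 3.42 in PCts > Pvr act, 19.0 in the labelled Pvr RNAi library and 11.4 in PCts > w1118. ATPsynbeta, the catalytic subunit of ATP synthase (chromosome 4, 1031484 to 1034917, forward strand), was at 5.15 in EGT > yki act and 5.87 in EGT > w1118, and at 1.84 in PCts > Pvr act, 8.69 in the labelled Pvr RNAi library and 6.19 in PCts > w1118. For both genes the lowest library was PCts > Pvr act and the highest was the one labelled PCts > Pvr RNAi.

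In cytochrome c oxidase (complex IV), COX6B and COX4 had the most UMIs. COX6B was at 3.39 UMIs per 10,000 in EGT > yki act and 3.91 in EGT > w1118, and at 2.76 in PCts > Pvr act, 8.38 in the labelled Pvr RNAi library and 4.51 in PCts > w1118. COX4 was at 2.95 in EGT > yki act and 3.47 in EGT > w1118, and at 1.70 in PCts > Pvr act, 8.15 in the labelled Pvr RNAi library and 3.81 in PCts > w1118. Both again had their lowest level in PCts > Pvr act. In complex I, the accessory subunit gene ND-MLRQ had the most UMIs, with a level of 2.49 in EGT > yki act, 2.41 in EGT > w1118, 1.58 in PCts > Pvr act, 4.51 in the labelled Pvr RNAi library and 3.81 in PCts > w1118.

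In complex III, UQCR-C2, a core protein of the cytochrome bc1 complex, was at 2.01 UMIs per 10,000 in EGT > yki act and 2.34 in EGT > w1118, and at 0.687 in PCts > Pvr act, 4.27 in the labelled Pvr RNAi library and 2.36 in PCts > w1118. UQCR-11 was at 1.78 in EGT > yki act and 2.02 in EGT > w1118, and at 1.89 in PCts > Pvr act, 3.75 in the labelled Pvr RNAi library and 2.88 in PCts > w1118. UQCR-11 therefore had its lowest level in EGT > yki act rather than in PCts > Pvr act. In complex II (succinate dehydrogenase), SdhA, the flavoprotein that oxidises succinate, was at 0.587 in EGT > yki act and 1.19 in EGT > w1118, and at 0.322 in PCts > Pvr act, 1.55 in the labelled Pvr RNAi library and 1.04 in PCts > w1118. The plot shows the 3 most abundant members of each complex. Of the others plotted, ATPsynF, COX7A, ND-PDSW, ND-B14.5A, SdhC, SdhD and UQCR-Q each had their lowest level in PCts > Pvr act and their highest in the labelled Pvr RNAi library. ATPsynF, of the membrane part of ATP synthase, was at 1.83 in PCts > Pvr act, 7.53 in the labelled Pvr RNAi library and 4.04 in PCts > w1118. Levels are compared between libraries only, since transcripts differ in length.

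**Figure D1:**
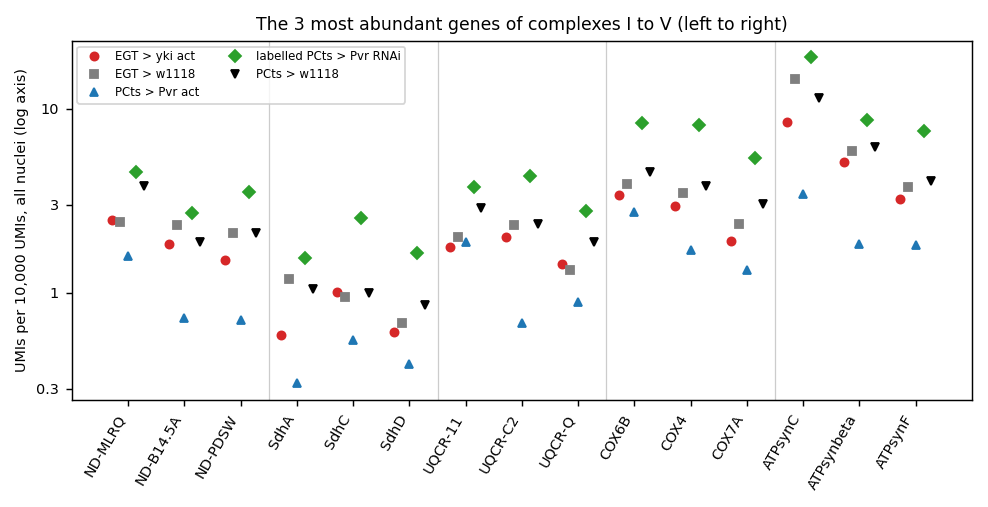
Level of the 3 most abundant members of each of the 5 complexes in the 5 libraries, as UMIs per 10,000 UMIs over all nuclei on a log axis, with 1 point per library and genes grouped by complex from I (left) to V (right). PCts > Pvr act is the lowest point for most genes and the labelled Pvr RNAi library the highest, for example 1.84 and 8.69 for ATPsynbeta.

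The L paralogs were rare, and several had a pattern of their own. ND-20L, ND-24L, ND-B14.5AL, COX6CL and ATPsynCF6L had 0 UMIs in every library, while their parents ND-20, ND-24, ND-B14.5A and ATPsynCF6 had 4004 to 26621 UMIs each. UQCR-11L, the paralog of UQCR-11, had 85 UMIs in EGT > yki act and 182 in EGT > w1118, with 47 in PCts > Pvr act, 95 in the labelled Pvr RNAi library and 142 in PCts > w1118. Most of these UQCR-11L UMIs were in main segment PCs in both controls, 92 in EGT > w1118 and 101 in PCts > w1118. COX7CL, ND-51L1 and COX7AL2 were the only other paralogs above 100 UMIs, with 307, 207 and 141 over all libraries.

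COX6AL, a paralog of the complex IV subunit encoded by levy, was seen almost only in PCts > Pvr act. It had 91 UMIs there, 0 in the labelled Pvr RNAi library and 1 in PCts > w1118, and 2 in EGT > yki act against 0 in EGT > w1118. Of the 91 UMIs of COX6AL, 75 were in 41 nuclei of the cell type annotated as lower tubule PCs (Pvr-act) and 13 in renal stem cells (Pvr-act). The log2 ratio of COX6AL to PCts > w1118 was 5.10, with a counting interval of 2.59 to 10.4 that rests on 1 control UMI. COX6AL2 (22 UMIs), COX7AL (19 UMIs) and ATPsynbetaL (28 UMIs) also had their highest counts in PCts > Pvr act, which was the deepest library.

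The other paralogs were at or near the floor. UQCR-14L had 4 UMIs, UQCR-6.4L 14, ND-49L 15, COX4L 29, ATPsynepsilonL 38, COX5BL 41 and ND-51L2 88 over all libraries, and ATPsynGL had 1. Of the 38 UMIs of ATPsynepsilonL, 16 were in EGT > yki act and 2 in EGT > w1118. The parents UQCR-14, UQCR-6.4, ND-49, COX4, COX5B, COX7A, COX7C, ATPsynG and ND-51 had 5986 to 30927 UMIs each. A short paralog can share sequence with its parent, and how the authors' counting treated reads that fit both was not tested. Exons of 8 members overlap another annotated gene on the same strand, among them ATPsynC, COX6B, ND-MLRQ and UQCR-Q.

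The share of all UMIs held by the members differed widely between cell types, and nearly in the same order in the 2 control libraries. Over all nuclei it was 1.06% in EGT > w1118 and 1.16% in PCts > w1118. In EGT > w1118 it was highest in renal stem cells, visceral muscle and adult tracheal cells (2.90%, 2.80% and 2.64%) and lowest in main segment PCs 2, main segment PCs and lower tubule PCs (0.532%, 0.732% and 0.757%). In PCts > w1118 the lowest were main segment PCs 2, main segment PCs and initial and transitional PCs (0.667%, 0.801% and 0.934%), followed by lower tubule PCs with 0.983%, and visceral muscle, adult tracheal cells and renal stem cells were highest with 3.55%, 3.34% and 3.25%. Across the 11 cell types present in both controls, the shares had a Spearman correlation of 0.93, as a description of cell types that share their libraries.

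Neighbours in this order often did not differ. In EGT > w1118 the intervals of renal stem cells (2.88% to 2.93%) and visceral muscle (2.67% to 2.93%) overlapped. In PCts > w1118 those of adult tracheal cells (3.19% to 3.49%) and renal stem cells (3.21% to 3.28%) overlapped. Stellate cells, the chloride-transporting cells of the MT, stood between the groups with 1.38% in EGT > w1118 and 1.55% in PCts > w1118. Upper ureter PCs were above stellate cells and below renal stem cells, with 2.16% in EGT > w1118 and 2.19% in PCts > w1118. The 2 main segment PC clusters thus had the lowest shares in both controls.

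**Figure D2:**
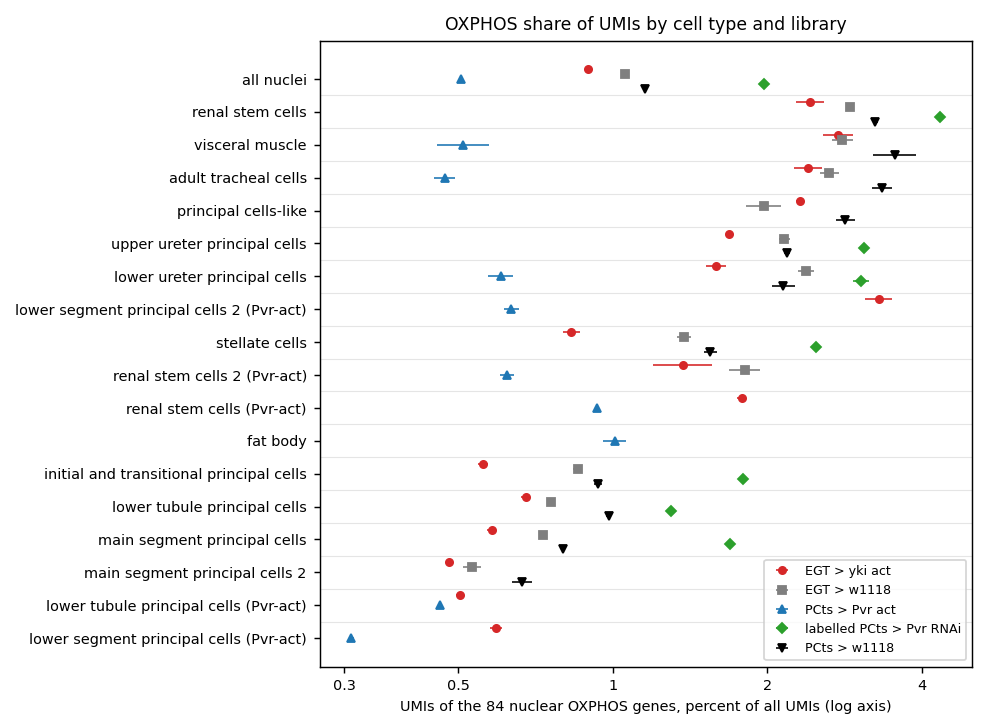
Share of all UMIs on the 84 members (percent, log axis) by annotated cell type and library, with all nuclei in the top row and 95% counting intervals. Main segment PCs lie at 0.581% in EGT > yki act, 0.732% in EGT > w1118, 1.69% in the labelled Pvr RNAi library and 0.801% in PCts > w1118, and no cell type of PCts > Pvr act exceeds 1.01%.

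Depth moved with this order. Over the cell types of a library, the Spearman correlation of the members' share with the median UMIs per nucleus was -0.82 in EGT > yki act (16 cell types), -0.71 in EGT > w1118 (12), -0.63 in PCts > Pvr act (9), -0.75 in the labelled Pvr RNAi library (7) and -0.85 in PCts > w1118 (11). In EGT > w1118 the median depth was 548 UMIs for renal stem cells and 11479.5 for main segment PCs. Genes of the cytosolic ribosome, whose RNA is also mostly cytoplasmic, moved the same way, with 24.6% of UMIs in renal stem cells and 3.55% in main segment PCs of that library. Their part in the differences between cell types was not tested.

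Within these 2 cell types the share differed less between depths. Renal stem cells of EGT > w1118 had 3.02%, 2.89% and 2.82% of UMIs on members in nuclei with under 1000, 1000 to 3000 and 3000 to 10000 UMIs, and those of PCts > w1118 had 3.16%, 3.41% and 3.22%. Main segment PCs had 0.838% in nuclei with 3000 to 10000 UMIs and 0.702% in deeper ones in EGT > w1118, and 0.835% and 0.770% in PCts > w1118. At 3000 to 10000 UMIs, renal stem cells were thus still above main segment PCs in both controls. Other cell types of PCts > w1118 varied in this. Stellate cells had 2.545% in nuclei with under 1000 UMIs and 1.45% at 1000 to 3000 UMIs. Upper ureter PCs had 2.17%, 1.84%, 2.32% and 2.22% from the lowest to the highest depth class.

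**Figure D3:**
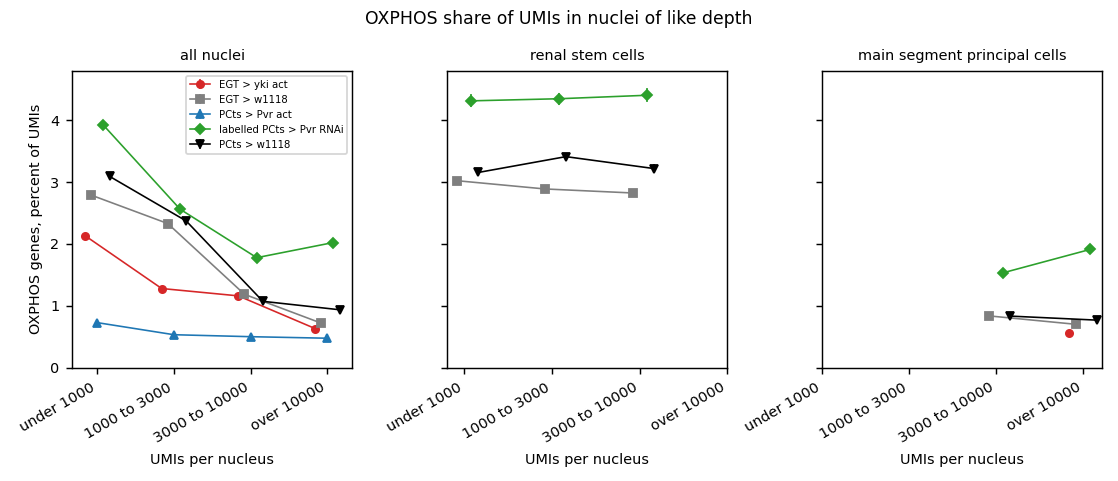
Share of UMIs on the members (percent) in nuclei of like depth, for all nuclei (left), renal stem cells (middle) and main segment PCs (right), with UMIs per nucleus on the horizontal axis, 1 line per library and 95% counting intervals. In nuclei with 3000 to 10000 UMIs, all nuclei together are at 1.16% in EGT > yki act, 1.19% in EGT > w1118, 0.503% in PCts > Pvr act, 1.78% in the labelled Pvr RNAi library and 1.07% in PCts > w1118.

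The share of single genes in the OXPHOS signal was compared between cell types. As a share of the members' UMIs, 10 of 61 genes were past 1.5-fold higher and 7 lower in main segment PCs than in renal stem cells in both controls. These are 16.4% and 11.5% of the members. Of all genes, as a share of all UMIs, 32.6% were higher and 32.4% lower. The members' lower sum in main segment PCs is taken out of their counts but not out of those of all genes. The counts thus have unlike denominators and cannot be ranked against each other. As a share of their own list's UMIs, 2 of 82 cytosolic ribosomal protein genes were higher and 0 lower, and 3 of 35 mitochondrial ones higher and 8 lower. The members named next were singled out after their values were seen. ND-49, a core subunit of complex I near the quinone site, held 2.13% of member UMIs in main segment PCs and 0.440% in renal stem cells of EGT > w1118, and 1.61% and 0.520% in PCts > w1118, log2 ratios of 2.28 and 1.63. ND-B14.5A, an accessory subunit, held 3.08% and 0.724% in EGT > w1118, and 2.34% and 0.829% in PCts > w1118, and UQCR-11 had log2 ratios of 1.64 and 1.11. Lower in main segment PCs were ATPsynB, a subunit of the peripheral stalk, with log2 ratios of -0.98 and -0.90, COX6B with -0.97 and -0.77, and ND-B14.7 with -1.38 and -0.80. Between main segment PCs and lower tubule PCs, 0 of 62 members were past 1.5-fold in both controls as a share of the members' UMIs. Of all genes, as a share of all UMIs, 4.98% were higher and 9.47% lower, again with unlike denominators.

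The controls differed from each other in a way that bears on single genes. Members summed to a log2 ratio of -0.13 (-0.14 to -0.12) in EGT > w1118 over PCts > w1118, and 1 of 63 members was higher and 7 lower, against 8.98% and 7.41% of all 7180 genes. The lowest were COX7B (-0.88), COX8 (-0.82), UQCR-6.4 (-0.79), ND-B15 (-0.69) and COX7C (-0.66), all small subunits of complexes IV, III and I, and the highest were COX7CL (0.69), ATPsynC (0.35) and ND-B14.5A (0.30). Length moved with this difference. Members with transcripts under 600 nt had a median of -0.61, those of 600 to 999 nt -0.21 and longer ones -0.02, and the Spearman correlation with length was 0.48 over 63 members and 0.02 over 7150 genes.

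PCts > Pvr act had the lowest OXPHOS signal of the libraries, and genes of all 5 complexes were lower. Members held 0.507% of UMIs in PCts > Pvr act and 1.16% in PCts > w1118, a log2 ratio of -1.19 (-1.20 to -1.18). Of 65 members that passed the filter on UMIs, 58 were lower and 0 higher, and 64 had a ratio below 1. Over all 8426 genes, 22.8% were lower and 40.5% higher. The median log2 ratio was -1.18 for members and 0.31 for all genes. With nuclei of 3000 to 10000 UMIs alone, the shares were 0.503% and 1.07%, so the difference was present at like depth. These nuclei were largely of other cell types than those of the control, and the part of depth was not tested.

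Every complex took part, and complex V most. Summed over genes, the log2 ratio was -1.11 for complex I, -1.09 for complex II, -1.01 for complex III, -1.01 for complex IV and -1.45 for complex V. Lower were 29 of 34 genes of complex I, 4 of 4 of complex II, 7 of 7 of complex III, 7 of 9 of complex IV and 11 of 11 of complex V. Complex V held 30.9% of the members' UMIs in PCts > Pvr act and 36.9% in PCts > w1118, while complex IV held 22.4% and 19.8%.

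The lowest ratios included core and catalytic subunits. UQCR-11L was lowest, with 0.0120 UMIs per 10,000 in PCts > Pvr act and 0.0961 in PCts > w1118, a log2 ratio of -3.00 (-3.51 to -2.52). ND-B14.7, an accessory subunit of complex I, followed with 0.201 in PCts > Pvr act and 0.708 in PCts > w1118, a log2 ratio of -1.82 (-1.95 to -1.68). UQCR-C2 had a log2 ratio of -1.78 (-1.85 to -1.71), and ND-51, the NADH-binding subunit of complex I, had 0.340 in PCts > Pvr act and 1.15 in PCts > w1118, a log2 ratio of -1.76 (-1.86 to -1.65). ATPsynbeta was at -1.75 (-1.80 to -1.71), ATPsynC at -1.73 (-1.77 to -1.70) and SdhA at -1.70 (-1.80 to -1.59).

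The members nearest to the control were mostly other genes. COX7CL had a log2 ratio of 0.04 (-0.48 to 0.58) and ND-51L1 of -0.22 (-0.80 to 0.39), both from fewer than 120 UMIs a library. ND-ACP, the mitochondrial acyl carrier protein, which also serves fatty acid and lipoate synthesis, was at 1.65 UMIs per 10,000 in PCts > Pvr act and 2.01 in PCts > w1118, a log2 ratio of -0.29 (-0.35 to -0.22). ND-ACP therefore held 3.25% of the members' UMIs in PCts > Pvr act and 1.74% in PCts > w1118. ND-AGGG and ND-15, accessory subunits of complex I, had log2 ratios of -0.41 (-0.56 to -0.25) and -0.42 (-0.52 to -0.32).

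**Figure D4:**
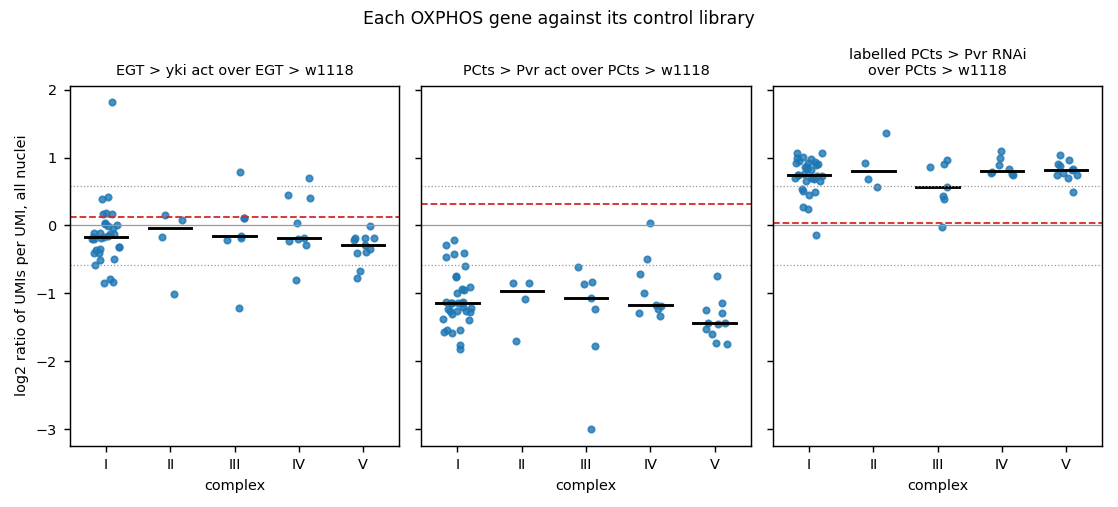
Log2 ratio of each member over its control library in all nuclei, by complex, with 1 point per gene with at least 100 UMIs, black bars for the median of the complex, a dashed red line for the median of all genes and dotted lines at 1.5-fold. In PCts > Pvr act 64 of 65 genes lie below 0, in the labelled Pvr RNAi library 61 of 63 lie above 0, and in EGT > yki act 46 of 64 lie below 0.

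The cell types of PCts > Pvr act were largely not those of its control, so that a change of cell types and a change within them cannot be told apart over all nuclei. Most of its nuclei were annotated to 5 cell types named after Pvr act, and only 3 cell types reached 20 nuclei in both. In these 3, matched by the name in the annotation alone, the members were lower. Adult tracheal cells had 0.471% of UMIs on members in PCts > Pvr act and 3.34% in PCts > w1118, a log2 ratio of -2.83 (-2.92 to -2.73), and visceral muscle had 0.512% and 3.55%, a log2 ratio of -2.79 (-3.01 to -2.57). Lower ureter PCs had 0.605% in PCts > Pvr act and 2.15% in PCts > w1118, a log2 ratio of -1.83 (-1.94 to -1.72). All 9 members that passed the filter in tracheal cells were lower, against 21.4% of genes there, and all 3 in lower ureter PCs, against 24.3%. These counts cannot show how common lower members were, since the filter favoured them. Tracheal cells had 368047 UMIs in PCts > Pvr act and 55499 in PCts > w1118. Most of these members would have missed the filter with a control level equal to that in PCts > Pvr act. COX5B, for example, had 52 tracheal UMIs in PCts > Pvr act and 54 in PCts > w1118. The summed ratios cover all members without this filter.

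These 3 cell types were also deeper and poorer in other cytoplasmic RNA in PCts > Pvr act. Tracheal cells had a median of 1565.5 UMIs in PCts > Pvr act and 634 in PCts > w1118, and 9.04% and 20.4% of UMIs on genes of the cytosolic ribosome. Tracheal markers were at 8.12 UMIs per 10,000 in this cell type in PCts > Pvr act and 9.73 in PCts > w1118, but over all nuclei they were at 7.07 and 0.759. They thus set the tracheal nuclei apart in PCts > w1118 but hardly in PCts > Pvr act, so the nuclei compared may not be alike. Markers of visceral muscle were at 283 UMIs per 10,000 in that cell type in PCts > Pvr act and 43.1 in PCts > w1118. Hemocyte markers were at 1.54 over all nuclei of PCts > Pvr act and 0.218 of PCts > w1118, and at 42.4 in lower segment PCs 2 (Pvr-act). The part of these differences in the members' level was not tested.

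Across the 9 cell types of PCts > Pvr act the members held 0.310% to 1.01% of UMIs, a narrower and lower range than the 0.667% to 3.55% over 11 cell types of PCts > w1118. The lowest was lower segment PCs (Pvr-act), its largest cell type with 3395 nuclei, and the highest was fat body. Some of these cell types also held nuclei of EGT > yki act. Renal stem cells (Pvr-act) had 0.931% of UMIs on members in PCts > Pvr act and 1.78% in EGT > yki act, and lower segment PCs (Pvr-act) had 0.310% and 0.593%. Lower tubule PCs (Pvr-act) were closer, with 0.461% in PCts > Pvr act and 0.505% in EGT > yki act.

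Genes of the pathway under other symbols were also lower in PCts > Pvr act. Of 8 subunits and electron carriers that passed the filter, 7 were lower, among them RFeSP, the Rieske iron-sulfur protein of complex III (-1.70), levy, a complex IV subunit (-1.54), and blw, the alpha subunit of ATP synthase (-1.37). Cyt-c-p, the main somatic cytochrome c, was not, with 5.19 UMIs per 10,000 in PCts > Pvr act and 4.92 in PCts > w1118, a log2 ratio of 0.08 (0.04 to 0.12). Of 5 carriers, 3 were lower, Mpc1, a subunit of the mitochondrial pyruvate carrier (-2.18), Mpcp2, a phosphate carrier (-1.39), and sesB, the ADP/ATP translocase (-1.07).

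The citric acid cycle, which feeds complexes I and II, was lower in 9 of 11 genes. Citrate synthase (kdn) was at 0.674 UMIs per 10,000 in PCts > Pvr act and 6.43 in PCts > w1118, a log2 ratio of -3.25 (-3.32 to -3.19), and aconitase (mAcon1) was at 0.200 and 0.962, a log2 ratio of -2.27 (-2.40 to -2.14). The exceptions were the succinyl-CoA synthetase genes ScsbetaA (-0.04) and Scsalpha1 (-0.23). Of 11 glycolysis genes 5 were higher and 1 lower, a share of higher genes close to the 40.5% of all genes. Ldh, lactate dehydrogenase, was at 6.04 UMIs per 10,000 in PCts > Pvr act and 0.231 in PCts > w1118, a log2 ratio of 4.71 (4.56 to 4.87).

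Ribosomal protein genes and genes of mitochondrial DNA gave other counts. Of 72 mitochondrial ribosomal protein genes, 7 were higher and 9 lower in PCts > Pvr act, and of 83 cytosolic ribosomal protein genes, 30 were higher and 0 lower. Of 12 genes of mitochondrial DNA, 1 was higher and 4 lower, and together they held 0.190% of UMIs in PCts > Pvr act and 0.180% in PCts > w1118. Of the nuclear regulators, ERR, the nuclear receptor that controls oxidative metabolism genes, had a log2 ratio of -2.50 (-2.65 to -2.35), while srl, the fly PGC-1 homolog, was at 0.88 (0.65 to 1.11), and Ets97D and Myc were at 1.61 and 1.39.

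**Figure D5:**
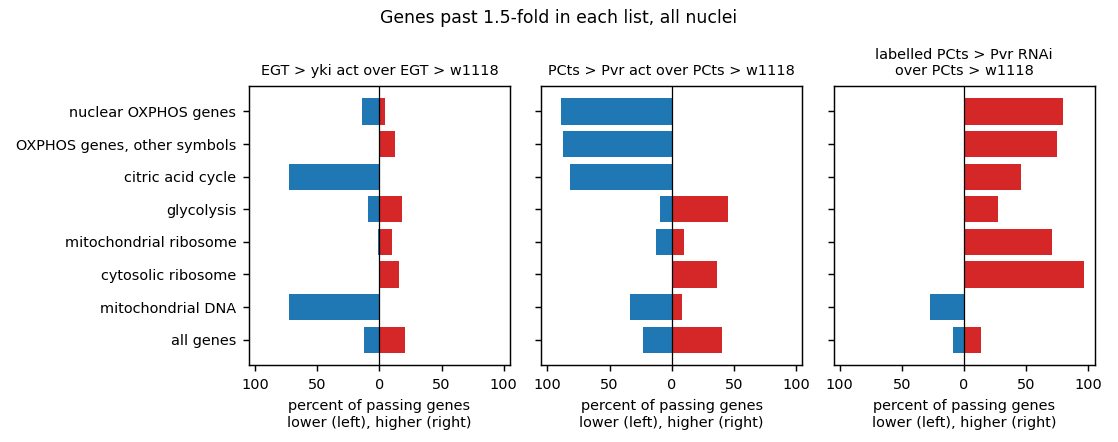
Share of genes past 1.5-fold in each list over all nuclei, as a percent of the genes that passed the filter, lower to the left in blue and higher to the right in red, for the 3 comparisons with a control. In PCts > Pvr act 58 of 65 OXPHOS genes and 9 of 11 citric acid cycle genes are lower but 0 of 83 cytosolic ribosomal protein genes, and in the labelled Pvr RNAi library 50 of 63 OXPHOS genes and 80 of 83 cytosolic ribosomal protein genes are higher.

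In the labelled Pvr RNAi library the members were higher than in the same PCts > w1118 control. They held 1.97% of UMIs in that library and 1.16% in PCts > w1118, a log2 ratio of 0.77 (0.76 to 0.78). Of 63 members that passed the filter, 50 were higher and 0 lower, against 14% and 8.73% of all 6869 genes, and the median log2 ratio was 0.78 for members and 0.04 for all genes. The count depended on how nuclei were weighted, since means in which each nucleus counts equally gave 8 higher members with no pseudocount, a setting added after the data were seen. They gave 8 with a pseudocount of 0.1 UMI per 10,000 and 2 with 1. Since this comparison and that of PCts > Pvr act share their control library, their results are not independent.

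By complex, the summed log2 ratio was 0.69 for complex I, 0.92 for complex II, 0.68 for complex III, 0.88 for complex IV and 0.78 for complex V. SdhC, a membrane anchor of succinate dehydrogenase, was highest, with 2.55 UMIs per 10,000 in the labelled Pvr RNAi library and 0.990 in PCts > w1118, a log2 ratio of 1.36 (1.27 to 1.46). COX4 followed at 1.10 (1.05 to 1.15), then ND-B17 at 1.07 and ND-18 at 1.06, accessory subunits of complex I, and ATPsynO, a stalk subunit that holds the catalytic head, at 1.04 (0.96 to 1.11). The lowest were ND-AGGG at -0.14 (-0.34 to 0.06), UQCR-11L at -0.02 (-0.41 to 0.37), ND-MLRQ at 0.25, ND-B18 at 0.27 and UQCR-11 at 0.38.

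Members were higher in all 7 cell types with enough nuclei in both libraries, with the highest ratios in PCs of the main and initial segments, whose intervals did not overlap those of the other cell types. Main segment PCs had 1.69% of UMIs on members in the labelled Pvr RNAi library and 0.801% in PCts > w1118, a log2 ratio of 1.08 (1.07 to 1.10), and initial and transitional PCs had 1.79% and 0.934%, a log2 ratio of 0.94 (0.91 to 0.97). Stellate cells followed with 2.48% in the labelled Pvr RNAi library and 1.55% in PCts > w1118, a log2 ratio of 0.68 (0.63 to 0.73). The log2 ratio was 0.40 for lower tubule PCs, 0.42 for renal stem cells, 0.49 for upper ureter PCs and 0.50 for lower ureter PCs. Stellate cells and renal stem cells are thus among the cell types with higher members. The driver is one of PCs, and the paper describes CG31272 as expressed far more weakly in those cell types. The source of the difference there was not tested.

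In main segment PCs 56 of 62 members were higher and 0 lower, against 21.3% and 9.46% of genes there, with a median of 1.14. Initial and transitional PCs had 52 of 60 higher (16.4% of genes), stellate cells 30 of 45 (13.9%) and lower ureter PCs 7 of 14 (16%). The count was lower in renal stem cells with 14 of 60 (4.34%), upper ureter PCs with 14 of 60 (6.87%) and lower tubule PCs with 11 of 61 (7.81%). Fewer members passed the filter in stellate cells and lower ureter PCs. There a gene near the limit can pass only through the library where it is higher. The counts in these cell types thus cannot show how common higher members were, while the summed ratios cover all members. SdhC was again highest in main segment PCs, with 2.13 UMIs per 10,000 in the labelled Pvr RNAi library and 0.592 in PCts > w1118, a log2 ratio of 1.85 (1.69 to 2.01). It was followed by ND-18 (1.64), COX4 (1.63), ATPsynB (1.56) and COX5A, a complex IV subunit (1.52). UQCR-11L (-0.36) and ND-AGGG (-0.01) were again lowest, with ND-MLRQ at 0.33, UQCR-11 at 0.49 and ND-B18 at 0.51. With means over nuclei and a pseudocount of 1, 29 members were higher in main segment PCs.

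Genes of the cytosolic ribosome were higher in the same library by as much or more. They held 12.3% of UMIs in the labelled Pvr RNAi library and 6.34% in PCts > w1118, with 80 of 83 genes higher, and in main segment PCs they held 8.63% and 2.94%, with 83 of 83 genes higher. Mitochondrial ribosomal protein genes were higher in 51 of 72 cases. Genes of mitochondrial DNA were not higher in any of 11 cases, 3 were lower, and their sum was 0.165% of UMIs against 0.180% in PCts > w1118. Of the other OXPHOS subunits and electron carriers, 6 of 8 were higher, with Cyt-c-p at 0.79, and of the citric acid cycle 5 of 11, with mAcon1 at 1.02 and Mdh2, malate dehydrogenase, at 0.95. Of 11 glycolysis genes, 3 were higher and 0 lower.

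Transcript length moved with the difference in this library over all genes, with a Spearman correlation of -0.40 over 6840 genes, but hardly over members (-0.10 over 63). Among genes with transcripts of 1000 nt or more, 15 of 19 members and 631 of 5820 genes were higher. The difference was also present in nuclei of like depth. At 3000 to 10000 UMIs main segment PCs had 1.54% of UMIs on members in the labelled Pvr RNAi library and 0.835% in PCts > w1118, and above that 1.91% and 0.770%. Renal stem cells had 4.31%, 4.35% and 4.40% over the 3 depth classes of this library.

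In EGT > yki act the summed difference from the control was small and uneven between genes. Members held 0.894% of UMIs in EGT > yki act and 1.06% in EGT > w1118, a log2 ratio of -0.24 (-0.25 to -0.23). Of 64 members that passed the filter, 3 were higher and 9 lower. The 9 lower members are a share near the 12% of all 7421 genes that were lower, and 20.5% of genes were higher. The median was -0.18 for members and 0.12 for all genes. The size of the difference varied with depth. The members' share was 2.14% in EGT > yki act and 2.79% in EGT > w1118 in nuclei with under 1000 UMIs, 1.28% and 2.33% at 1000 to 3000 UMIs, 1.16% and 1.19% at 3000 to 10000 UMIs, and 0.635% and 0.722% in deeper nuclei. In nuclei of 3000 to 10000 UMIs alone, 5 members were higher and 2 lower, with a median of 0.02.

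Complex V accounted for most of the summed difference from EGT > w1118, and a large part of that came from the gene ATPsynC alone. The log2 ratio of complex V was -0.41, against -0.22 for complex I, -0.25 for complex II, -0.05 for complex III and -0.01 for complex IV. Complex V held 36.6% of the members' UMIs in EGT > yki act, 41.3% in EGT > w1118 and 36.9% in PCts > w1118. Its larger difference was thus relative to EGT > w1118, where its share was above that of the other control. Within complex V, ATPsynC had a log2 ratio of -0.77 (-0.80 to -0.74) and ATPsynD, a stalk subunit, of -0.67 (-0.74 to -0.60), while ATPsynbeta was at -0.19 (-0.23 to -0.15). ATPsynC was at 8.49 UMIs per 10,000 in EGT > yki act, 14.5 in EGT > w1118 and 11.4 in PCts > w1118. It held 9.50% of the members' UMIs in EGT > yki act and 13.7% in EGT > w1118, so the lower sum of complex V does not describe its genes in general. SdhA had 999 UMIs in EGT > yki act and 1868 in EGT > w1118, a log2 ratio of -1.02 (-1.13 to -0.90), whereas the other subunits of complex II were at -0.17 (SdhD), 0.08 (SdhC) and 0.15 (SdhB). SdhA was the only gene of complex II past 1.5-fold.

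The remaining lower members were UQCR-11L (-1.21), ND-B14.7 (-0.85), ND-AGGG (-0.83), COX7CL (-0.80), ND-49 (-0.79) and ND-19, an accessory subunit of complex I (-0.59). Higher were ND-MNLL, with 99 UMIs in EGT > yki act and 26 in EGT > w1118, a log2 ratio of 1.82 (1.18 to 2.50), UQCR-6.4 at 0.79 (0.67 to 0.92) and COX7C at 0.70 (0.61 to 0.78). COX8 (0.44) and ND-B15 (0.43) came next. UQCR-6.4, COX7C, COX8 and ND-B15 were 4 of the 5 members that were lowest in EGT > w1118 relative to PCts > w1118, and set against PCts > w1118 only 1 member of EGT > yki act was higher and 14 were lower. ND-MNLL shares exons with another gene on its strand. With a level in EGT > yki act equal to that in EGT > w1118, ND-MNLL would have missed the filter on UMIs. It could thus enter the count only as a higher member.

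Within cell types the members were lower in EGT > yki act in most cases. In 12 cell types both libraries had at least 20 nuclei. The interval of the summed log2 ratio lay below 0 in 10 and above 0 in 1. Stellate cells had 0.831% of UMIs on members in EGT > yki act and 1.38% in EGT > w1118, a log2 ratio of -0.73 (-0.80 to -0.66), the lowest of the 12. Initial and transitional PCs had 0.560% in EGT > yki act and 0.856% in EGT > w1118, a log2 ratio of -0.61 (-0.66 to -0.57), and lower ureter PCs 1.59% and 2.38%, a log2 ratio of -0.58 (-0.66 to -0.50). Visceral muscle was at -0.03 (-0.15 to 0.09), an interval that holds 0. The exception was the cell type annotated as PCs-like, with 2.31% in EGT > yki act and 1.97% in EGT > w1118, a log2 ratio of 0.23 (0.12 to 0.35) that rests on 32 control nuclei.

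In 3 of these cell types a large part of the members that passed the filter was past 1.5-fold. In initial and transitional PCs 27 of 52 members were lower, against 14.5% of genes, in stellate cells 15 of 23, against 15%, and in lower ureter PCs 9 of 15, against 25.6%. In stellate cells and lower ureter PCs most members missed the filter. A gene near its limit can reach it only through the library where it is higher. The counts there thus cannot show how common lower members were, while the summed ratios cover all members. In PCs-like nuclei 16 of 46 members were higher, near the 30% of all genes there. Elsewhere 11 of 61 members were lower in upper ureter PCs (12.3% of genes), 2 of 61 higher and 8 lower in lower tubule PCs (14.1% and 17.8%), 5 of 54 higher and 6 lower in main segment PCs 2 (28.9% and 18%) and, from 30 nuclei of EGT > yki act, 6 of 60 higher and 18 lower in renal stem cells (24.8% and 26.1%). In the last 3 of these cell types the share of members that were higher was below that of all genes. The median depth of stellate cells was 2151.5 UMIs in EGT > yki act and 1812 in EGT > w1118, and that of initial and transitional PCs 7366 and 5514. Cytosolic ribosomal protein genes held 8.00% of UMIs in stellate cells of EGT > yki act and 11.1% of EGT > w1118, and 3.20% and 3.55% in initial and transitional PCs, and their part in the result was not tested.

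Main segment PCs had 94 nuclei in EGT > yki act and 544 in EGT > w1118, with 0.581% and 0.732% of UMIs on members, a log2 ratio of -0.33 (-0.36 to -0.30). There 17 of 62 members were lower and 0 higher, against 18.8% and 7.76% of genes, with a median of -0.43 for members and -0.16 for all genes. The count of lower members was 33 against PCts > w1118 and 0 with means over nuclei and a pseudocount of 1. ND-AGGG was lowest at -1.74 (-2.63 to -0.96) from 14 UMIs in EGT > yki act, followed by the core subunit ND-20 (0.301 UMIs per 10,000 in EGT > yki act and 0.603 in EGT > w1118), then by ND-39 at -0.92, ND-B17.2 at -0.90 and ND-ASHI at -0.87, all of complex I. UQCR-6.4 (0.42), COX7B (0.22), ATPsynbeta (0.20), ND-B12 (0.16) and COX7C (0.14) were at the upper end, and of these only UQCR-6.4 and ATPsynbeta had intervals above 0.

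Around the members, the citric acid cycle was lower in 8 of 11 genes in EGT > yki act, with mAcon1 at -1.41 (-1.52 to -1.30), the oxoglutarate dehydrogenase gene Ogdh at -1.25 (-1.29 to -1.20) and kdn at -0.77 (-0.82 to -0.73). Carriers were lower in 3 of 5 cases (Ant2, Mpcp2 and sesB). Of 8 other subunits and electron carriers, cype, a complex IV subunit, was higher (0.67) and 0 were lower, although Cyt-c-p was at -0.57 (-0.61 to -0.53). Genes of mitochondrial DNA were lower in 8 of 11 cases and held 0.175% of UMIs in EGT > yki act and 0.324% in EGT > w1118. EGT > w1118 was itself above the 0.180% of PCts > w1118. Ldh was at 0.701 UMIs per 10,000 in EGT > yki act and 0.0578 in EGT > w1118, a log2 ratio of 3.60 (3.29 to 3.92), and at 0.231 in PCts > w1118. Of 11 glycolysis genes 2 were higher and 1 lower, of 72 mitochondrial ribosomal protein genes 7 were higher and 1 lower, and of 83 cytosolic ones 13 were higher and 0 lower. ERR was at -0.94 (-1.06 to -0.82) and Myc at 0.95 (0.88 to 1.02).

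Between comparisons that share no library, 7 of 64 members were lower in both EGT > yki act and PCts > Pvr act, each against its own control. That is 7 of the 9 members lower in EGT > yki act and 7 of the 58 lower in PCts > Pvr act. It is 10.9% of the members, against 8.54% of all genes lower in both. They were ATPsynC, ATPsynD, ND-19, ND-49, ND-B14.7, SdhA and UQCR-11L. ATPsynC was at 8.49 UMIs per 10,000 in EGT > yki act, and its level was higher in EGT > w1118 (14.5) than in PCts > w1118 (11.4). SdhA had log2 ratios of -1.02 in EGT > yki act and -1.70 in PCts > Pvr act, and ND-49 of -0.79 and -1.27. COX7C and ND-MNLL were higher in both EGT > yki act and the labelled Pvr RNAi library, 2 of the 3 and of the 50 higher members and 3.17% of members against 2.44% of all genes, with log2 ratios of 0.70 and 0.75 for COX7C and 1.82 and 0.94 for ND-MNLL. ND-MNLL had 99 UMIs in EGT > yki act and 26 in EGT > w1118, and 70 in the labelled Pvr RNAi library and 54 in PCts > w1118. With levels equal to the controls it would have missed the filter on UMIs in both comparisons. Its place among the shared higher members was thus favoured by the filter. COX7C had a log2 ratio of -0.49 in PCts > Pvr act, and its level in EGT > w1118 was below that in PCts > w1118.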

How the data were processed

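Single nuclei of MTs from 5 genotypes were profiled by droplet sequencing with UMIs, 1 library each. The authors counted UMIs with Cell Ranger 7.0.0 on build BDGP6, normalized them with Seurat, and clustered the nuclei of all libraries together after batch correction. The authors deposited natural log values of 1 plus the UMIs of a gene per 10,000, as a table of 16495 genes by 21371 nuclei, and a second table that gives each nucleus its library and annotated cell type. How nuclei were filtered and whether free RNA or doublets were removed are not given in the sources used here, and no doublet caller was run.

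Values were turned back into UMI counts: in 100% of nuclei all values were whole multiples of 1 UMI within 1e-06. Depth was 150 to 123301 UMIs per nucleus. Symbols, coordinates and transcript lengths came from Ensembl release 115 (BDGP6), which matched 16447 identifiers and left 48 unmatched. UMIs were summed per library and cell type. Ratios carry exact conditional binomial and shares exact binomial (Clopper-Pearson) 95% intervals. Comparisons were EGT > yki act with EGT > w1118, and both Pvr libraries with PCts > w1118. Ratios were tested on simulated data before use.

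Named genes were the 3 most abundant members of each complex, the 5 highest and 5 lowest ratios per comparison, members past 1.5-fold the same way in comparisons that share no library, paralogs and members at 0. Members and gene lists were chosen with earlier results of these data known. Of the glycolysis list, 11 of 12 names matched. Promoter motifs were not analysed here. Alternatives were other pseudocounts, filters, folds and control, MT nuclei only, equal weight per cell type and centring on the median gene, and, added after the data were seen, nuclei of 3000 to 10000 UMIs, means over nuclei with no pseudocount and transcripts of 600 nt or more. Software was Python 3.11.15 with numpy 2.4.6, scipy 1.17.1 and pandas 2.3.3.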

Additional observations from a re-analysis of the deposited data

Results flagged for a closer look

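The members' sum in PCs-like nuclei ran against the other cell types of EGT > yki act. It was 2.31% of UMIs in EGT > yki act and 1.97% in EGT > w1118, a log2 ratio of 0.23 (0.12 to 0.35), while the interval lay below 0 in 10 of the 12 cell types. The difference between cell types was not tested. There were 661 such nuclei in EGT > yki act and 32 in EGT > w1118, with medians of 507 and 542 UMIs. In PCts > w1118 the same cell type had 89 nuclei and 2.84% of UMIs on members, above both EGT libraries, so that EGT > yki act was higher than EGT > w1118 but lower than PCts > w1118.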

How the results depend on the processing

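No paired analysis was possible because each genotype had 1 library, and no library could be left out. Of the values recomputed under other settings, 162 stayed close to the reported ones and 21 moved. Of those under settings added after the data were seen, 38 stayed and 7 moved. No median past 1.5-fold changed sign, but the small median of EGT > yki act over all nuclei (-0.18) turned to 0.02 in nuclei of 3000 to 10000 UMIs. In EGT > yki act (3 members higher and 9 lower over all nuclei), means over nuclei with a pseudocount of 1 gave 0 higher and 5 lower, 2-fold gave 1 and 2, PCts > w1118 as control gave 1 and 14, nuclei of 3000 to 10000 UMIs gave 5 and 2, and means over nuclei with no pseudocount gave 14 lower. In its main segment PCs (17 lower), the count of lower members was 0 with a pseudocount of 1, 7 with at least 500 UMIs, 2 at 2-fold and 33 against PCts > w1118, and nuclei of 3000 to 10000 UMIs gave 4 higher and 7 lower. In PCts > Pvr act (58 lower, 0 higher), 44 to 63 members were lower under every alternative, with 4 higher at a filter of 20 UMIs and 3 higher with equal weight per cell type, where the median was -2.45. In the labelled Pvr RNAi library (50 higher, 0 lower), 2 were higher in means over nuclei with a pseudocount of 1, 8 with 0.1 and 8 with none, and 7 at 2-fold, and 1 was lower at a filter of 20 UMIs and against EGT > w1118. In its main segment PCs (56 higher), 29 were higher with a pseudocount of 1, and 1 was lower at a filter of 20 UMIs. Shares of all genes under these alternatives are not printed, here or above. The counts thus show how the calls moved and not how members compare with other genes. A pseudocount pulls genes with means below it toward no difference. The cause of the other shifts was not tested. Depth limits single genes in small cell types: with under 100 UMIs over both libraries no ratio was counted, and 5 members had 0 and 13 had 1 to 99 UMIs over all libraries.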
